A study of Schizosaccharomyces pombe with 4 samples.

Results

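The left arm of chromosome 1 of fission yeast (Schizosaccharomyces pombe) holds a 600 kb stretch with no strong peak of BrdU-labelled DNA, from position 100001 to 700000 of the array design. It was covered by 2000 of the 41551 probes of the tiling array, spaced 300 bp apart, out of 18457 probes on chromosome 1. Averaged over 2 kb wherever 3 or more probes allowed it, it comprised 300 of the 2775 windows of the chromosome and of the 6214 windows of the 3 chromosomes. The stretch was selected on its low log2 ratio of BrdU-labelled over input DNA on these same arrays, so its level and the height of its maxima are given as a description, with no test. The difference between the genotypes was tested.

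The strains had in common cdc25-22, which stops the mitotic inducer Cdc25 from working at high temperature, as well as the thymidine kinase module Pnmt1-TK and the nucleoside transporter module Padh1-hENT, which let the cells take up and incorporate BrdU. Cultures were held at 37 °C for 4 h and 15 min to arrest them before mitosis, returned to 26 °C with 10 mM hydroxyurea and 200 µM BrdU, and collected at 120 min, near the peak of septation. The arrays were labelled wild type (cdc25-22 with the modules, 2 arrays) or fft3Δ (the same with the fft3 gene deleted, 2 arrays), and each genotype had 1 array in series 1 and 1 in series 2. Cy5 marked the DNA pulled down by an antibody to BrdU, and Cy3 the input, DNA of the whole-cell extract. The value throughout is the log2 ratio of Cy5 over Cy3, centred on the median probe of each array, so that 0 is the level of a median probe. The labels do not say whether the arrays came from separate cultures, so p-values measure only the spread between arrays.

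Replication of the fission yeast genome starts at origins, mostly AT-rich intergenic stretches bound by the origin recognition complex, and each origin fires in only a part of the cells. Hydroxyurea depletes nucleotides, forks stall near the origins that fired early, and the checkpoint kinase Cds1 holds back later origins, so BrdU taken up under the drug marks mainly early origins and DNA between them stays unlabelled. Fft3 is a chromatin remodeller of the Snf2 family, and the study's title ties it to nucleosome turnover, heterochromatin inheritance and genome replication.

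Every probe of the stretch was well above background in both channels on all 4 arrays, and 0 were saturated. The arrays were not alike in brightness. The median probe of the stretch stood 17.1, 15.8, 222 and 50.9 times over background in the input channel of wild type and labelled fft3Δ of series 1 and then wild type and labelled fft3Δ of series 2, the order kept for all values below, and 33.5, 31.3, 844 and 43.5 times in the BrdU channel. Wild-type array 2 stood apart, was read with another version of the scanner software, and carried 10 of the 12 non-uniform spots in the stretch, which were left out. Across the 300 windows its ratio correlated with those of the other arrays at 0.82 to 0.89, against 0.95 to 0.98 among the other arrays, and its input signal at 0.72 to 0.75 against 0.96 to 0.99. These correlations run across neighbouring windows of the same arrays and describe likeness only. In the input channel, 0 of 41218 runs of 12 probes, the length of fft3, were at -1 or lower against wild type on the log2 scale in both series, and the lowest value reached in both was -0.28. Series 1 alone went down to -0.45 and series 2 alone to -1.38. The input therefore did not show the deletion in both series, and these arrays are called labelled fft3Δ. Genes were not placed on the array design, so whether its probes cover fft3 is not known.

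The whole stretch carried less BrdU signal than the rest of chromosome 1 on all 4 arrays. Its mean log2 ratio was -0.63 (wild type) and -0.59 (labelled fft3Δ) in series 1, and -0.51 (wild type) and -0.62 (labelled fft3Δ) in series 2. The rest of the chromosome, without the outer 100 kb of both ends and without the surroundings of the centromere, had means of -0.12, -0.12, -0.09 and -0.12. The stretch therefore lay below the rest by 0.51, 0.47, 0.42 and 0.50, or -0.47 ± 0.04 (SD, n = 4) as a difference of log2 levels. The low level was in the BrdU channel: with Cy5 alone the stretch stood at -0.70, -0.68, -0.50 and -0.69, against -0.11, -0.11, -0.10 and -0.10 for the rest. The input channel differed less between the stretch and the rest, being lower on 3 arrays and higher on wild-type array 2, at -0.15, -0.19, -0.00029 and -0.14, against -0.08, -0.09, -0.03 and -0.05 for the rest. Of 48 overlapping stretches of this length taken in steps of 100 kb along the chromosome, only the one from 200001 to 800000 (-0.61) had a lower mean than this stretch (-0.59).

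The low level was spread over most of the stretch and did not come from a few windows. In 229 of its 300 windows (76.3%) the ratio was under 0 on all 4 arrays, against 940 of 2250 windows (41.8%) of the rest of the chromosome. Windows under -1 on all arrays numbered 40 (13.3%) against 109 (4.84%), and windows over 0 on all arrays numbered 29 (9.67%) against 852 (37.9%). At the upper end, 0 windows were over 0.5 on all arrays, while 149 (6.62%) of the rest were. Single windows still spanned a wide range: the highest read 0.60, 0.56, 0.55 and 0.48 on the 4 arrays, and the lowest were under -2 on each. The profile of the 2 kb windows shows narrow rises to around 0 between broad troughs.

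**Figure D1:**
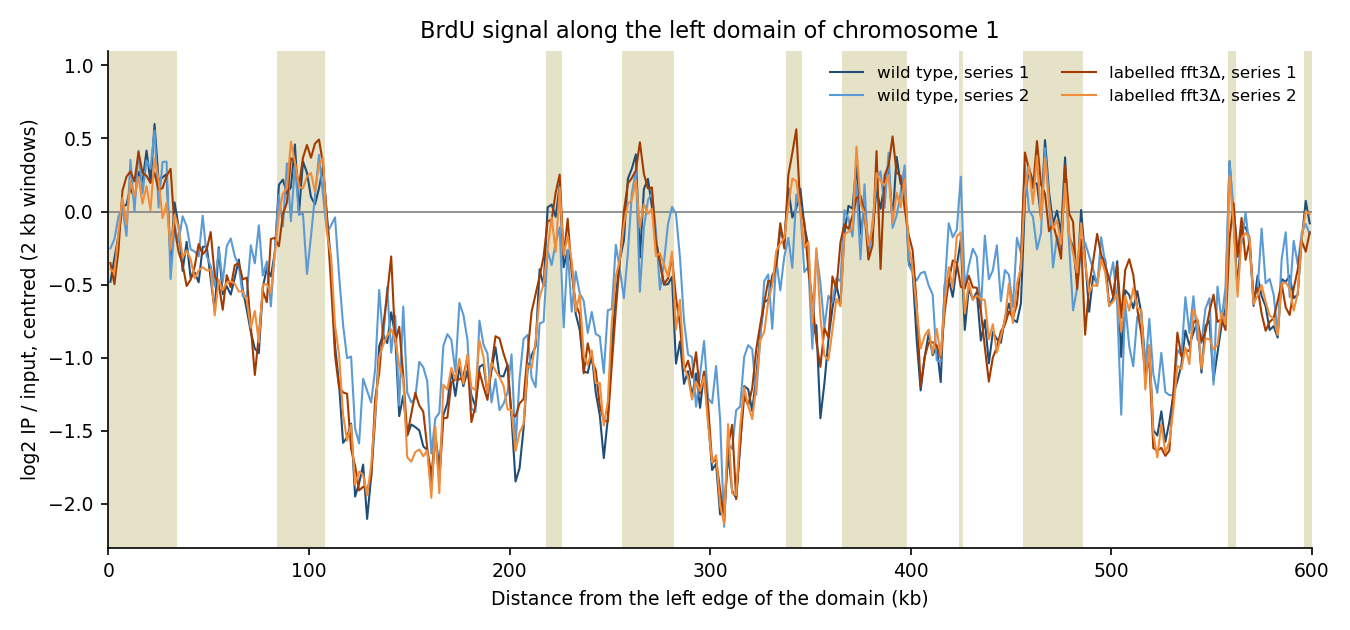
Log2 ratio of BrdU-labelled over input DNA in 2 kb windows (vertical axis) against distance from the left edge of the low stretch in kb (horizontal axis), 1 line for each of the 4 arrays. Shaded spans are the islands between troughs of at least 10 kb in which every array was under 0; the highest window of any array is at 0.60, the deepest are under -2, and the line of wild-type array 2 often lies above the others in the troughs.

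By the sign of the windows the stretch split into 9 troughs, runs of at least 10 kb with every window under 0 on all 4 arrays, and 10 islands between them. Troughs made up 428 kb (71.3%) and islands the remaining 172 kb. The islands were 2 to 34 kb long, and the distance between the centres of neighbouring islands had a median of 47 kb. Island means over the 4 arrays lay between -0.15 and 0.18 and trough means between -1.17 and -0.43. The islands thus lay near the level of a median probe of the array, some below it and none beyond it by much. The island of 2 kb at 524001 to 526000 read -0.19, -0.51, 0.24 and -0.14, over 0 on wild-type array 2 only. The number of islands and troughs and the distance between islands therefore rest in part on that array.

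The deepest long trough ran from position 208001 to 318000, 110 kb with every window under 0 on all 4 arrays. Its mean was -1.26, -1.17, -1.01 and -1.24. Outside the chromosome's ends and centromere, the longest such run of the rest was 134 kb. A second deep trough lay at 382001 to 438000 with a mean of -1.11 over the 4 arrays, and it held the lowest window of the stretch, 406001 to 408000, at -2.04, -2.11, -2.16 and -2.13. The next lowest were its neighbour at 404001 to 406000, at -2.07, -1.91, -1.42 and -2.01, and the window at 260001 to 262000 in the deepest trough, at -1.90, -1.81, -1.66 and -1.96. These 3 windows were low on every array, and in the latter pair wild-type array 2 was the least low. The longest trough towards the right edge, 586001 to 658000, averaged -0.83.

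Among the islands, the one at 184001 to 208000 was highest, with means of 0.20, 0.26, 0.05 and 0.23. An island at 438001 to 446000 averaged 0.08, 0.31, -0.11 and 0.12, with both labelled fft3Δ arrays above both wild-type arrays. The island that opens the stretch, 100001 to 134000, averaged 0.08 over the arrays and held the only run of at least 10 kb over 0 on all arrays, 114001 to 126000, with a mean of 0.26. In the rest of chromosome 1 such runs reached 126 kb.

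In blocks of 100 kb the low level was uneven along the stretch. The first block, 100001 to 200000, was near the middle of the chromosome's range at -0.17, -0.16, -0.12 and -0.21. It was the 25th lowest of the 53 blocks between the outer 100 kb of both ends, with those around the centromere included. The second block, 200001 to 300000, was the lowest of those 53 at -1.16, -1.09, -0.91 and -1.14. The blocks from 300001, 400001, 500001 and 600001 ranked 8th, 12th, 15th and 5th, with means over the 4 arrays of -0.64, -0.54, -0.41 and -0.69. The 6 blocks therefore included the lowest of the chromosome's interior and 1 that was ordinary.

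**Figure D2:**
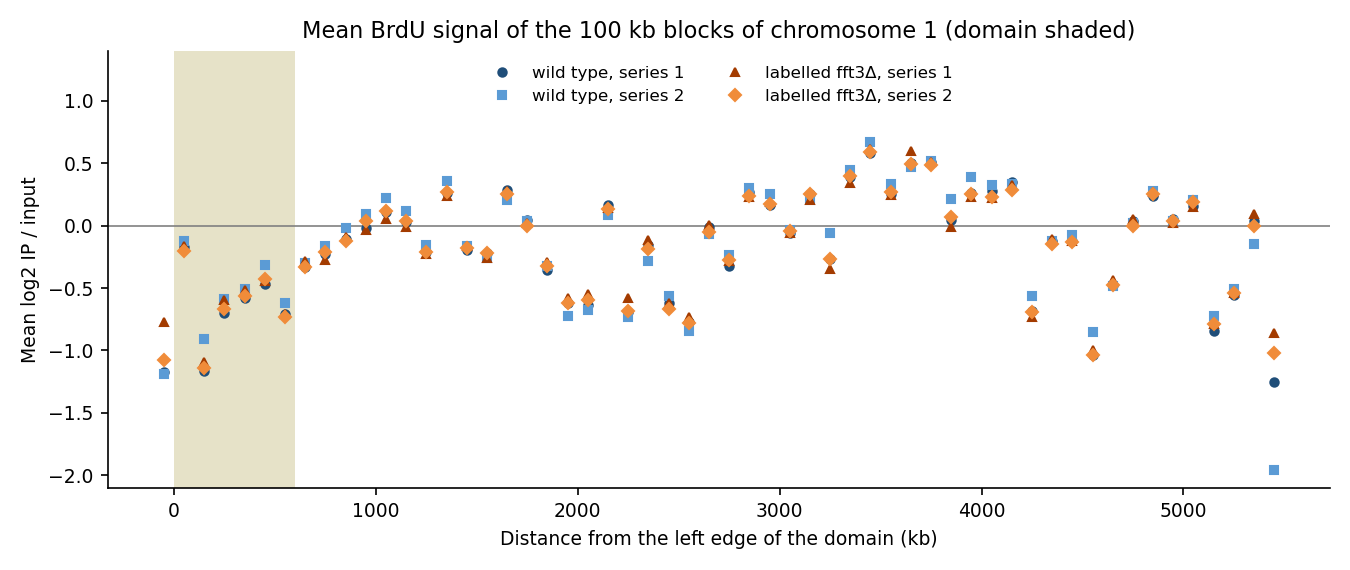
Mean log2 ratio of BrdU-labelled over input DNA in 100 kb blocks along chromosome 1 (vertical axis) against distance from the left edge of the low stretch in kb (horizontal axis), with points for the 4 arrays. The shaded span is the stretch itself; its block at 100 to 200 kb from the edge lies near -1.1 and its first block near -0.17.

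The windows at the edges show how the borders sit. On the left, the window just outside, 98001 to 100000, averaged -0.53 over the 4 arrays, and the window just inside, 100001 to 102000, averaged -0.37. On the right, the last window inside averaged -0.10 and the first outside, 700001 to 702000, -0.08. The signal took no large step between adjoining windows at either border. The 20 kb outside the left border were lower, at -0.78, -0.41, -0.55 and -0.84, than the 20 kb inside it, at 0.03, 0.07, 0.06 and -0.02, so on a larger scale the stretch began on a rise out of the low chromosome end.

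The weak maxima of the stretch were placed on the 4-array mean after smoothing each probe with its neighbours up to 500 bp away. A maximum was a probe with none higher up to 5 kb away, and with a prominence of 0.5 or more on the log2 scale. There were 28, or 4.67 in 100 kb, against 249, or 5.53 in 100 kb, in the rest of the chromosome, and the median distance to the next one was 18.9 kb against 16.5 kb. By this definition maxima were thus nearly as frequent as in the rest, and their heights were lower. Their heights ran from -1.23 to 0.60 with a median of -0.06, against a median of 0.59 and a highest value of 1.48 in the rest. Of the 28, 0 passed 0.74, while 88 of 249 (35.3%) did in the rest. That level is 1 SD over the median of the smoothed track of the 3 chromosomes. The SD is the spread around the median of the values below it only. Almost as many of the rest exceeded the highest maximum of the stretch (123, or 49.4%) as did not. The stretch was selected as one without strong peaks, so these low heights were fixed by its choice.

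Of the 28 maxima, 15 lay in islands and 13 in troughs. Heights in islands had a median of 0.43 and were between -0.08 and 0.60, and in troughs they had a median of -0.67 and were between -1.23 and -0.19. All 13 maxima over 0 (46.4% of the 28, against 77.5% in the rest) lay in 8 of the islands, and the heights of those 13 were within 0.30 to 0.60. Troughs were defined on these same arrays as runs of windows under 0. The split of heights between islands and troughs was therefore largely set by that definition.

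The highest maximum, at position 205801, had a smoothed height of 0.60. Averaged over probes within 1 kb it read 0.33, 0.54, 0.55 and 0.43. The next, at 193801 in the same island, had a height of 0.59 and read 0.40, 0.36, 0.35 and 0.42. Both were over 0 on every array, with the genotypes overlapping, and the fitted differences of 0.05 ± 0.15 and 0.02 ± 0.14 (labelled fft3Δ minus wild type, SE) had adjusted p-values of 0.914 and 0.979 in limma with Benjamini-Hochberg adjustment over 687 maxima.

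The maximum at 122701, in the first island, had a height of 0.57 and read 0.61, 0.31, 0.60 and 0.34. Both labelled fft3Δ arrays were below both wild-type arrays here, by 0.28 ± 0.14 (SE) in the fit, which did not pass the threshold (limma adjusted p = 0.660). With Cy5 alone the sign turned, to 0.13, as the input signal was higher by 0.38 on the labelled fft3Δ arrays. At 567001, a height of 0.47 came with readings of 0.49, 0.12, 0.43 and 0.37, again lower on both labelled fft3Δ arrays, by -0.22 ± 0.15 (limma adjusted p = 0.684), and again with Cy5 alone the sign turned (0.11).

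The maximum at 473401 read 0.19, 0.19, -0.01 and 0.52 for a height of 0.48, and it rested most on labelled fft3Δ array 2. At 441901, in the short island at 438001 to 446000, the readings were 0.01, 0.58, -0.23 and 0.33 for a height of 0.45. Here one wild-type array was at the level of the median probe and the other below it, while both labelled fft3Δ arrays were above it. Its place among the 8 highest thus rested on the labelled fft3Δ arrays, with a mean of 0.45 against -0.11 in wild type. The difference was 0.56 ± 0.15 (SE), 0.57 within series 1 and 0.56 within series 2, and was the difference with the lowest adjusted p among the 28 maxima, at 0.485 (limma), which is above the threshold. The last pair of the 8 highest, at 557701 and 489001, had heights of 0.44 and 0.43. They read 0.33, 0.22, 0.30 and 0.22 at the former and 0.29, 0.32, 0.40 and 0.25 at the latter, with groups overlapping only at the latter. The 8 highest maxima fell in 5 islands.

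**Figure D3:**
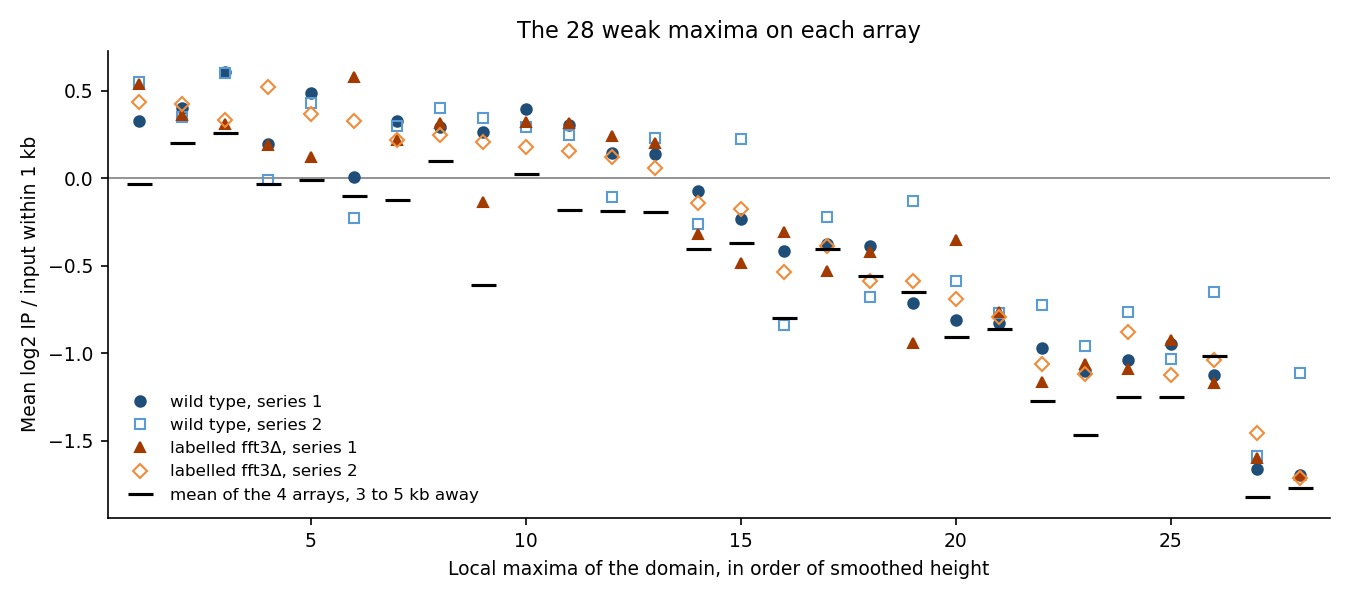
Log2 ratio of BrdU-labelled over input DNA averaged within 1 kb of each of the 28 weak maxima (vertical axis), ordered by smoothed height from the highest (horizontal axis), with a point for each of the 4 arrays and a dash for the mean of the arrays at 3 to 5 kb away. At the sixth highest, 441901, both labelled fft3Δ points (0.58 and 0.33) are above both wild-type points (0.01 and -0.23).

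The weak maxima were narrow. Around the 13 maxima over 0 the mean ratio at 300 bp to the left was 0.44, 0.32, 0.39 and 0.38, and at 1500 bp to the left it was 0.05, 0.10, 0.01 and -0.02. Around the 193 maxima over 0 of the rest it was 0.63, 0.51, 0.62 and 0.57 at the former distance and 0.25, 0.30, 0.17 and 0.22 at the latter, so both the maxima and their surroundings were lower in the stretch. The excess spanned few probes. The maxima were placed on these same arrays after smoothing over 500 bp, so a narrow excess is partly set by their placement. The labels give a fragment size of 500 to 1000 bp for the sheared DNA, and its relation to the width was not tested. Against flanks at 3 to 5 kb, the ratio at the maximum was higher on all 4 arrays at 18 of the 28, with a median excess of 0.26, and at 158 of 248 (63.7%) that could be read in the rest with a median of 0.25.

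Most weak maxima stood where the input signal was high too. The input channel was above its flanks at 25 of the 28 maxima (89.3%), by a median of 0.48, and the BrdU channel at 26, by a median of 0.69. In the rest of the chromosome the input was above its flanks at 65.3% of maxima, by a median of 0.28. At the 13 maxima over 0 the median excess was 0.82 in the input channel and 1.06 in the BrdU channel. The part of the input channel in these maxima was not tested.

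**Figure D4:**
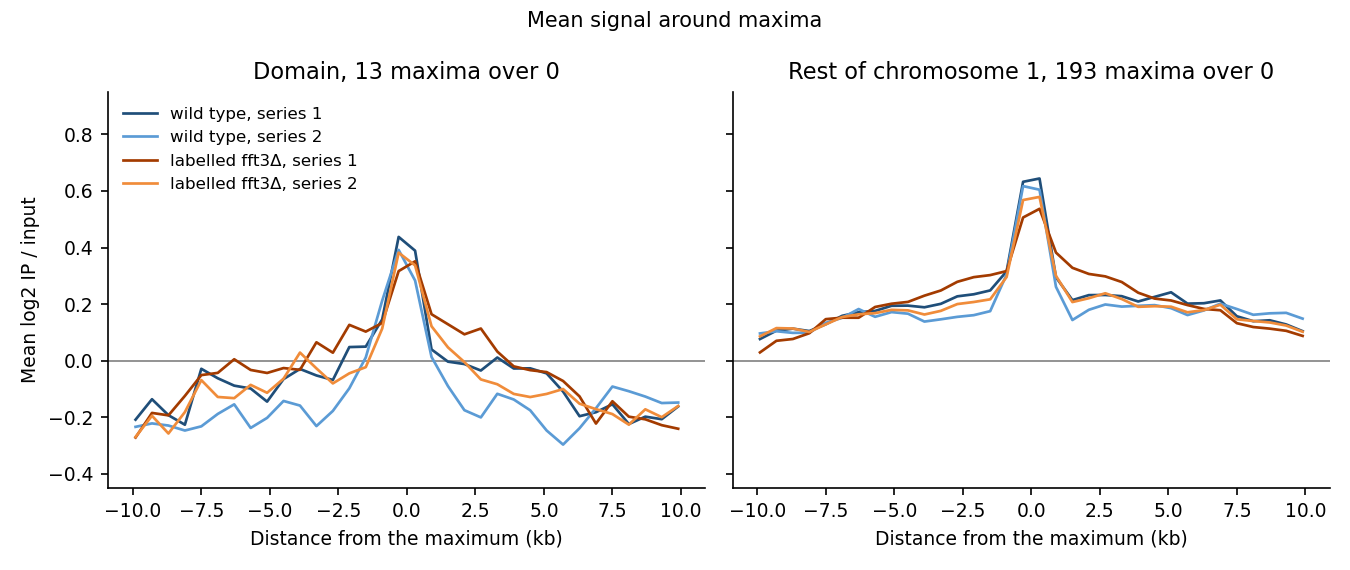
Mean log2 ratio of BrdU-labelled over input DNA (vertical axis) against distance from the maximum in kb (horizontal axis), 1 line for each array, around the 13 maxima over 0 of the low stretch (left) and the 193 of the rest of chromosome 1 (right). The lines of the stretch are at 0.32 to 0.44 just left of the maximum and return to about 0 or below away from it, and those of the rest stand higher at the maximum and around it.

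Since the maxima were placed on all arrays together, they were also placed on each series alone and read on the other, an alternative added after the data were seen. Of 26 maxima placed on series 1, 21 were above their flanks on wild-type array 2 and 24 on labelled fft3Δ array 2, with median excesses of 0.19 and 0.24. Of 44 placed on series 2, 39 were above their flanks on wild-type array 1 and 29 on labelled fft3Δ array 1, with medians of 0.21 and 0.16. Within 1500 bp, 22 of the 26 and 24 of the 44 had a maximum of the other series. Placed on single arrays, maxima numbered 43, 32, 58 and 34, and of the 8 highest, 6, 6, 8 and 7 were found within 1500 bp. The 8 highest were chosen on a mean that includes each of these arrays, so finding them again is partly set by their placement. The array on which all 8 were found, wild-type array 2, also had the most maxima.

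The level of the whole stretch did not separate the genotypes. The means of -0.57 ± 0.09 for wild type and -0.60 ± 0.03 for labelled fft3Δ (SD, n = 2 each) differed by -0.033, with both labelled fft3Δ arrays inside the range of the wild-type arrays (exact permutation test, two-sided, p = 1, where 2 arrays against 2 cannot go below 0.33). Within series 1 the difference was 0.046 and within series 2 it was -0.11, opposite in sign. Without wild-type array 2 it was 0.028. The contrast with the rest of the chromosome was -0.47 ± 0.06 in wild type and -0.48 ± 0.02 in labelled fft3Δ (SD, n = 2 each), a difference of -0.015 (0.045 in series 1, -0.076 in series 2; exact permutation test, two-sided, p = 1). With 4 arrays a small shift could not be detected.

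The opposite signs of the series ran through the troughs. In all 9 troughs wild-type array 2 was the highest of the 4 arrays, by 0.08 to 0.31 over the mean of the others, while in 6 of the 10 islands it was the lowest. The labelled fft3Δ array was lower than wild type in series 2 in all 9 troughs and higher in series 1 in 8 of 9. The input channel of wild-type array 2 was flatter, with an SD over the 300 windows of 0.30 against 0.58 to 0.60 on the others. Its part in the series 2 differences was not tested.

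Of the 6 blocks of 100 kb, 0 were called for a genotype difference, where 1.57% of 127 blocks of the 3 chromosomes were (limma, Benjamini-Hochberg at 0.05). With the series as a block of the fit 0 were called, where 3.94% of all were, and 0 had an unadjusted p under 0.05, where 3.94% of all did. The fitted differences were between -0.08 and 0.01, with SEs of 0.05 to 0.07 and adjusted p-values of 0.953 to 0.994. The largest, -0.08 ± 0.07 (SE) at 200001 to 300000, was 0.07 in series 1 and -0.23 in series 2. Without wild-type array 1, which leaves 1 wild-type array whose spread is taken to be that of the labelled fft3Δ pair, that block became -0.20 with an adjusted p of 0.0304 in limma, where 5.51% of blocks were called. The remaining wild-type array in that fit is the one that stood apart.

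**Figure D5:**
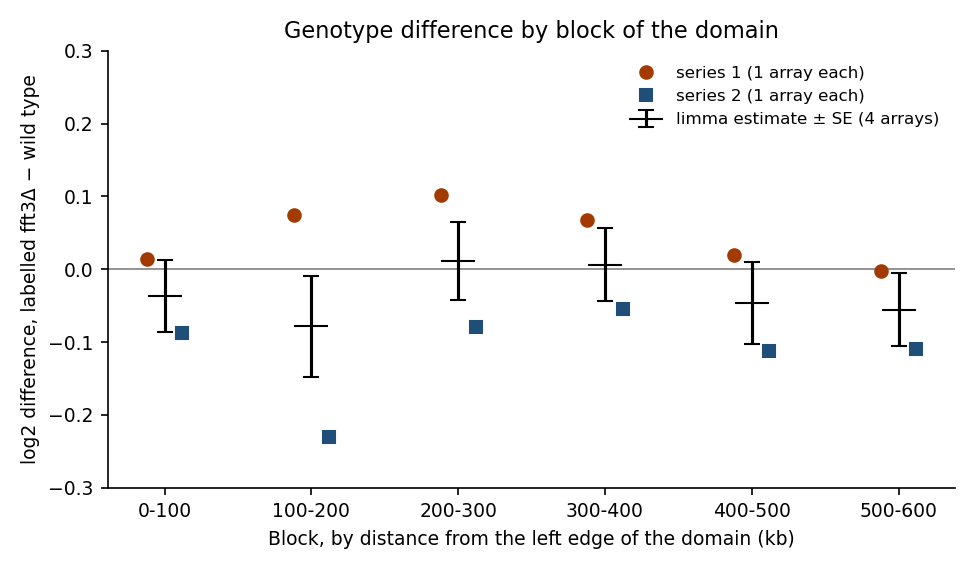
Difference in log2 ratio, labelled fft3Δ minus wild type (vertical axis), for the 6 blocks of 100 kb of the low stretch by their distance from its left edge in kb (horizontal axis), within series 1, within series 2 and for the fit with its SE. Series 2 is below 0 in all 6 blocks (-0.23 to -0.05), and series 1 is over 0 in 5 of them.

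Of the 300 windows, 0 were called in limma, where 0% of the 6214 windows were, the lowest adjusted p of the stretch being 0.883. At an unadjusted p under 0.05 there were 10 (3.33%, all higher in labelled fft3Δ), where 4.91% of all windows were. Both labelled fft3Δ arrays were below both wild-type arrays in 47 windows (15.7%), where 19.6% of all windows were, and above them in 33 (11%), where 15.1% were. The median window difference was -0.05 in the stretch and -0.02 over all windows.

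With the series as a block in limma, 2 of the 300 windows were called, where 1.79% of all windows were. They were the windows at 440001 to 442000 and 364001 to 366000, both higher in labelled fft3Δ. The former, which holds the maximum at 441901, read -0.04, 0.40, -0.38 and 0.23, a difference of 0.53 ± 0.16 (SE; 0.44 in series 1, 0.61 in series 2), with an adjusted p of 0.883 without the block and 0.0386 with it in limma. The latter read -0.31, 0.47, -0.55 and -0.11, a difference of 0.62 ± 0.20 (SE; 0.79 in series 1, 0.44 in series 2), with an adjusted p of 0.883 without the block and 0.0169 with it in limma. At both, the labelled fft3Δ arrays were above the wild-type arrays with no overlap. With Cy5 alone the differences were 0.30 at the former and 0.38 at the latter, and in the input channel they were -0.26 and -0.27.

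The window with the third highest moderated t, at 244001 to 246000 in the deepest trough, read -1.40, -0.79, -1.33 and -1.05 and missed the threshold with the block too (limma adjusted p = 0.108). Lower in labelled fft3Δ in both series, the 3 windows with the most negative moderated t were at 624001 to 626000 (-0.37), 226001 to 228000 (-0.40) and 264001 to 266000 (-0.33), each with a limma adjusted p of 0.883. All 3 lay in troughs, and in each the wild-type arrays were further apart than the labelled fft3Δ arrays. At 226001 to 228000, for example, the readings were -1.73, -1.88, -1.14 and -1.80, with wild-type array 2 above the other arrays.

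Of the 28 maxima, 0 were called for a genotype difference, where 0% of the 687 maxima of the 3 chromosomes were, and 0 were called with the series as a block. At an unadjusted p under 0.05 there was 1, the maximum at 441901, where 6.55% of all maxima were. The median difference was -0.06 in the stretch and -0.06 over all maxima. Without wild-type array 1, 4 maxima of the stretch were called in limma, where 6.4% of all maxima were, at 403201 (-0.59), 441901 (0.68), 524701 (-0.56) and 537301 (-0.63). Only 441901 among these was higher in labelled fft3Δ.

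The chromosome end beside the stretch gives a contrast in values. From 20001 to 40000 the ratio was -1.42, -0.87, -1.78 and -1.21, higher in labelled fft3Δ by 0.56 (0.55 in series 1, 0.57 in series 2). This was the largest difference, and the other 20 kb steps of the end had 0.19, 0.32, 0.16 and 0.04. Over the outer 100 kb the ratio differed by 0.25 (0.40 in series 1, 0.11 in series 2). This 100 kb block was not called in limma (adjusted p = 0.183). With the series as a block of the fit it was called (limma adjusted p = 8.26e-05). With Cy5 alone the difference over the outer 100 kb was 0.06 (0.27 in series 1, -0.15 in series 2), and in the input channel it was -0.23. In the last 20 kb before the stretch the difference was 0.37 in series 1 and -0.30 in series 2, and in the first 20 kb inside it was 0.04 and -0.08, so in both places the series were opposite in sign. Whether the differences of the end and of the stretch differ was not tested.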

How the data were processed

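DNA of 4 samples was measured on 2-colour Agilent arrays with 60-base probes. Per the labels' protocols, Cy5 marked immunoprecipitated and Cy3 input DNA on every array, both after random-primed amplification, so dye bias does not cancel. The software was Agilent Feature Extraction, per the submitters' processing notes, and per the file headers its version was 12.0 on 3 arrays and 11.5 on wild-type array 2. The deposited processed signals are intensity values from which, per the file headers, the authors' software had subtracted background before dye normalization. Their log10 ratio column, per the file headers Cy5 over Cy3, served to check direction, and the deposited flags are of unit other. The deposited series table holds a linear ratio. It was the processed Cy5 over Cy3 signal, not centred, to within 0.0132 (log2) on wild-type array 2 and to rounding elsewhere, with column medians of 1.03, 0.994, 1.07 and 1.02.

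Control spots and non-uniform spots were left out. Each array's median was taken from its log2 ratios, without loess or quantile normalization, and the ratios were averaged in 2 kb windows of at least 3 probes. Windows, 100 kb blocks and maxima of the 3 chromosomes were tested with lmFit and eBayes (limma 3.58.1, R 4.3.3), two-sided, genotype as the only term, with Benjamini-Hochberg adjustment at 0.05, after tests on simulated data. Arrays of series 1 shared a slide and a scanner, and arrays of series 2 shared a scanner, so fits with the series as a block and values within each series are given. Deviations from the group means correlated at 0.37 over all windows between arrays of the same series, and at 0.27 over the stretch, with 2 pairs. Single values were compared with the exact permutation test. Precision is limited by having only 4 arrays.

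The region, its limits and the rules for the items named were chosen with earlier results of these data known. Named items are the 8 highest maxima, the 3 lowest windows, the 3 windows highest and the 3 lowest by moderated t among those of one sign in both series, the 6 blocks and the edge windows. Positions count from 1 and follow the array design, whose build is not given in the sources used here. In the 6 blocks, the GC content of the reference (ASM294v3) followed the input best at shifts of -800 to -600 bp, so coordinates were not transferred, and genes and sequences are not analysed here. Alternatives tried are another background correction, loess, another centring, the Cy5 channel alone, filters, window lengths, the definition of a maximum, the deposited ratios and leaving out each array.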

Additional observations from a re-analysis of the deposited data

How the results depend on the processing

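The level of the stretch against the rest of chromosome 1 (-0.47) stayed below 0 under all alternatives run. It moved by more than the spread between arrays to -0.51 with normexp, -0.37 with loess, -0.53 with Cy5 alone and -0.42 on wild-type array 2 alone. The genotype difference of the mean (-0.033) was -0.094 to 0.028 with an array left out, -0.119 with centring on the mode and -0.086 with Cy5 alone, and the replicate block by series left it at -0.033. The difference of the contrast (-0.015) became 0.017 with normexp and -0.091 with Cy5 alone, and was -0.060 to 0.029 with an array left out, turning sign without wild-type array 2 (0.029) and without labelled fft3Δ array 2 (0.0011). The 28 maxima became 56 with Cy5 alone, 46 and 9 at a prominence of 0.25 and 1, and 15 and 50 with wider (1 kb) and narrower smoothing, so their number depends on the definition. Calls were 0 throughout except for 2 windows under the replicate block, and, without wild-type array 1, 1 block and 4 maxima. The blocked fit changed no other call in the stretch.

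Differences too small to hold a sign turned as follows. The block at 200001 was -0.20 to 0.048 with an array left out, and without wild-type array 2 it and the block at 500001 (0.030) were over 0. The block at 300001 was -0.0065, -0.0063, -0.074 and -0.064, and that at 400001 -0.013, -0.030, -0.080 and -0.010, with normexp, loess, centring on the mode and Cy5 alone, and with an array left out they were -0.043 to 0.067 and -0.031 to 0.043, below 0 without wild-type array 1 and without labelled fft3Δ array 1 (-0.024 and -0.018). With Cy5 alone the maxima at 122701, 489001, 557701 and 567001 became 0.13, 0.28, 0.18 and 0.11, and the window at 244001 became -0.12. The maximum at 193801 was -0.028 with normexp, -0.071 with centring on the mode, and -0.015 to 0.046 with an array left out (-0.0081 without wild-type array 2). The maximum at 205801 was -0.27 with normexp, -0.012 with loess, -0.037 with centring on the mode, and -0.062 to 0.16 with an array left out (-0.0026 without labelled fft3Δ array 1). The cause was not tested for any of these.

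Limits are the 2 arrays in each group, 1 of them unlike the others, no dye swap, and a deletion that the input did not show in both series. Whether probes cover the deleted gene is not known.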
